A study of Mus musculus with 26 samples.

Results

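Vegfa, Kdr, Flt1, Nrp1 and Nrp2, the ligand and the receptors of vascular endothelial growth factor (VEGF) signalling, were followed cell by cell in the newborn mouse retina. They are 5 of the 18193 genes that the array annotation names, and all 15 probe sets annotated to one of them alone were used. The genes were picked for this description with results of the same cells already known. Each array carried the amplified transcripts of 1 retinal cell. All mice were homozygous for a floxed Notch1 allele on a C57BL/6 background, and plasmids were electroporated into the living retina at postnatal day 0, with harvest at postnatal day 3. The 13 cells labelled WT had received CAG:GFP, a plasmid with the broadly active CAG promoter, and keep an intact floxed allele. The 13 cells labelled N1-CKO had received CAG:Cre and CALNL-GFP, a reporter that turns green where Cre has acted. Cells were picked by hand for GFP, so any electroporated cell type could be taken. The labels tie no cell to an animal or litter. Each group therefore stands as 1 sample, and its cells are not independent replicates. No test between groups was made, and the SDs describe the spread between cells.

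VEGF-A, the product of Vegfa, is secreted by oxygen-starved tissue and guides growing vessels. KDR (VEGF receptor 2) is the tyrosine kinase through which it mainly signals, whereas FLT1 (VEGF receptor 1) binds it tightly with weak kinase activity and can act as a trap. Neuropilins 1 and 2, from Nrp1 and Nrp2, are coreceptors that bind VEGF and, together with plexins, class 3 semaphorins that steer axons. These receptors are best known from endothelial cells, but retinal progenitors and some retinal neurons are also known to carry Kdr.

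Values are MAS5 signals on a linear scale. A transcript counts as detected where the signal reaches the 90th percentile of the array of that cell. Each gene is represented by the probe set whose log2 signal has the highest mean, and signals under 25.02 were raised to that floor before log2 was taken. Probe sets differ in how well they bind, so levels are compared between cells and never between genes. The reverse transcription was primed at the poly-A tail, and a probe set far from the 3' end may miss a transcript that is present.

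The 250 bases upstream of the annotated start are shown for Kdr, the member detected in most cells, and for Vegfa and Flt1, which were detected in none. The sequences are those of RefSeq, build GRCm38.p6, and all 5 members matched an entry. Kdr lies at chr5:75978456-75978705, Vegfa at chr17:46032378-46032627 and Flt1 at chr5:147726012-147726261, each on the minus strand and written 5' to 3' along the gene. For Vegfa the table lists 2 starts, and the more upstream one is shown. Capitals mark matches on either strand to 4 motifs. The site of RBPJ, the DNA-binding partner of Notch, was searched as GTGGGAA. Of the core of hypoxia response elements only the form ACGTG was searched, and not GCGTG. The GC box was searched as GGGCGG, which Sp family proteins bind. The box that positions the start of transcription was searched as TATAAA.
Kdr: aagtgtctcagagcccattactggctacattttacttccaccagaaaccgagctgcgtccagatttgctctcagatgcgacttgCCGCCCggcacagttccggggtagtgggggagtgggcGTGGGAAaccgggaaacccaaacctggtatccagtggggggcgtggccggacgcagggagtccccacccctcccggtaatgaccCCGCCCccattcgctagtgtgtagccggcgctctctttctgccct
Vegfa: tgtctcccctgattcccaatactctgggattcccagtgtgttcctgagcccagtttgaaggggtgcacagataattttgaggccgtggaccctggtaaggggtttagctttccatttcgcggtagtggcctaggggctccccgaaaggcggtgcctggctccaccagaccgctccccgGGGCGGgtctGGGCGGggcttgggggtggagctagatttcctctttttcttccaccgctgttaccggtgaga
Flt1: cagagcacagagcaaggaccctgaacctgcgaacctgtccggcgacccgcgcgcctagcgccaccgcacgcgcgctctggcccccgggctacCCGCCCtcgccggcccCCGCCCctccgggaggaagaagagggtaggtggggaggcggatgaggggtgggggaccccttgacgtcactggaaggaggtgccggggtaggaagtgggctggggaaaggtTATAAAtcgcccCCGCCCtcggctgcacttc
The Kdr window held 1 match to GTGGGAA, from 129 to 123 bases before the start, and 2 GC boxes in the reverse complement. GTGGGAA matched in 5.42% of the 32851 windows of the same length in the table, and in none of the windows of the other 4 members. The Vegfa window held 2 GC boxes and the Flt1 window 3 GC boxes and 1 TATAAA match, and these motifs were found in 32.7% and 12.4% of all windows. ACGTG was in none of the 5 windows and in 16.6% of all windows. The form GCGTG, not searched, can be read in the Kdr window and, on the other strand, in the Flt1 window. Absence of a hypoxia core is therefore not shown. A match is a string of letters and not a measured binding site.

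Of the 15 probe sets, Kdr's single probe set was detected in 12 of the 26 cells. The 14 probe sets of the other 4 genes were detected in 3 of 364 pairs of probe set and cell, or 0.824%, against 11.4% over all probe sets named for 1 gene. Below the floor lay 56.3% of those pairs, against 48.1% over all named probe sets. Vegfa, Flt1 and Nrp2 were detected in 0 of 26 cells by their representative probe sets, as were 41.9% of all genes.

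**Figure D1:**
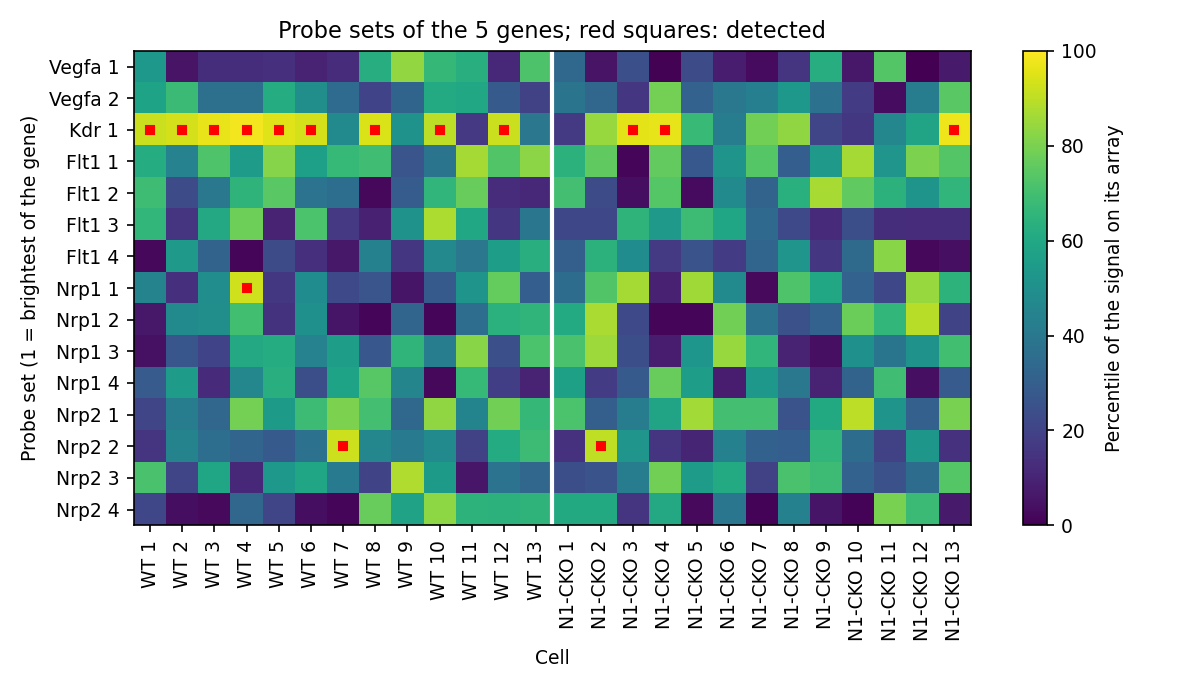
Percentile of the signal on its own array for the 15 probe sets (rows, numbered from the brightest of each gene) in the 26 cells (columns), with red squares where the signal reached the 90th percentile. Kdr is marked in 9 WT and 3 N1-CKO cells, and only 3 other squares appear, 1 of Nrp1 and 2 of Nrp2.

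The ligand was not detected in either group. Vegfa signals ran from 0.722 to 308 in WT cells (median 13.4) and from 0.338 to 210 in N1-CKO cells (median 3.56), and the groups overlapped over nearly the whole range. The highest values were those of WT cell 9 and N1-CKO cell 9, which lay at percentile 83.8 and 62.1 of their arrays. The WT mean of the log2 signal was 5.52 ± 1.29 (SD, n = 13 cells) and the N1-CKO mean 5.07 ± 1.05. They differed by -0.45, less than either SD. The second Vegfa probe set reached 156 in WT and 80.1 in N1-CKO cells and differed by -0.02. For a count of 0 in 13 cells the exact 95% Clopper-Pearson interval runs from 0 to 24.7%. It covers counting error only.

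Kdr was the receptor detected in most WT cells. Among WT cells the signal was 2946 in cell 1, 3960 in cell 2, 7671 in cell 3, 10822.5 in cell 4, 5701 in cell 5 and 4071 in cell 6. It was 3880 in cell 8, 679 in cell 10 and 2109 in cell 12. The other 4 WT cells were near background, with 7.94 in cell 7, 76.1 in cell 9, 7.02 in cell 11 and 10.3 in cell 13. WT cells thus fell into a bright set of 9 and a dim set of 4, with no value between 76.1 and 679.

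In N1-CKO cells most signals were low. Kdr was bright in cell 3 (6504), cell 4 (6274) and cell 13 (10415), and it lay at 469 in cell 2 and 245 in cell 8. The remaining 8 cells had signals from 1.44 to 67.8. The groups overlapped, since the 3 bright N1-CKO cells lay within the range of the bright WT cells.

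**Figure D2:**
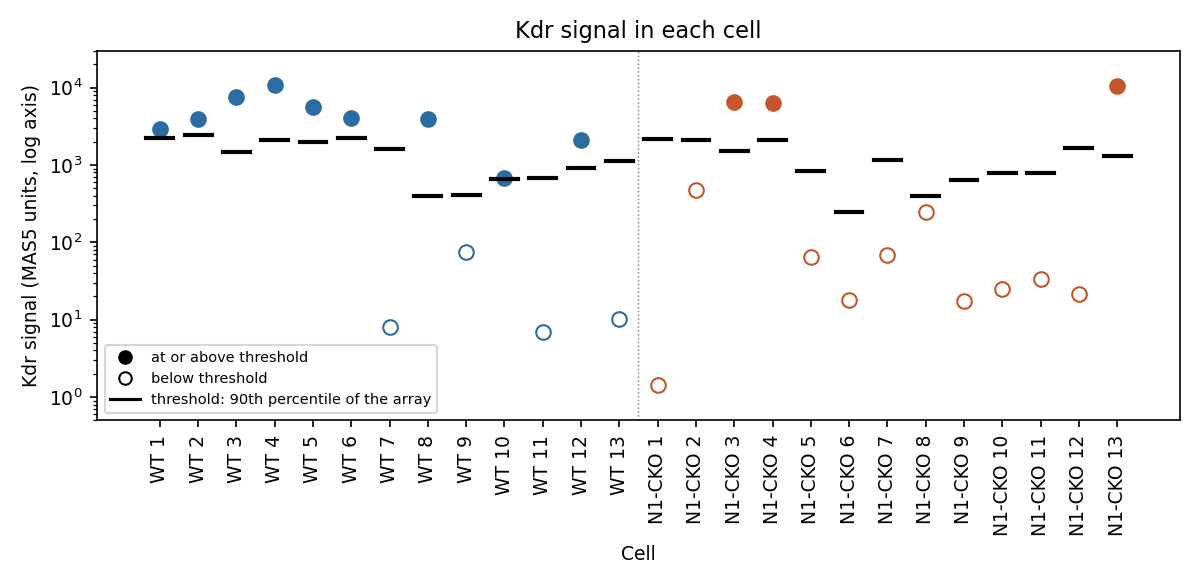
Kdr signal in MAS5 units on a log axis for each of the 13 WT (blue) and 13 N1-CKO (orange) cells, with the detection threshold of each array as a black bar; filled points reach it. Of the WT points 9 are filled, from 679 to 10822.5, and of the N1-CKO points 3, from 6274 to 10415.

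Kdr was detected in 9 of 13 WT cells (69.2%, exact Clopper-Pearson 95% interval 38.6 to 90.9) whereas 3 of 13 N1-CKO cells had it (23.1%, 5.04 to 53.8). The intervals overlap, and they cover counting error only. Detection in at least 9 WT cells was reached by 5.77% of all genes. WT cell 10 was just inside, at 1.02 times its threshold. The cell without Kdr that came nearest to its threshold was N1-CKO cell 8, at 0.618 times. With detection set at the 95th percentile of each array, Kdr counted in 3 WT and 3 N1-CKO cells, so that the difference in the number of cells depends on where the limit is set.

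Kdr had a mean log2 signal of 9.75 ± 3.42 (SD, n = 13) over WT cells and of 7.37 ± 3.41 over N1-CKO cells. The difference of -2.38 is smaller than the spread between cells in either group. Of the 8280 genes detected in at least 2 cells, 4.26% had a difference at or below that of Kdr, 22.3% had one of at most -1 and 19.1% one of at least 1. Kdr was among the genes chosen with this contrast known, and nothing is read from its place there. The median Kdr signal differed more than the mean, by -5.49 on the log2 scale, because the middle WT cell was bright and the middle N1-CKO cell dim.

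The arrays themselves varied. Detection thresholds ran from 245 to 2409 in signal, and the number of probe sets at or above their median threshold of 1230 from 2570 to 6250 per cell. By their 18S ribosomal RNA control, 10 arrays had a high and 16 a low signal, each set holding both groups in equal numbers. The 3' to 5' ratio of the Gapdh control, which grows with short cDNA or degraded RNA, had a median of 1.79 in WT and 2.67 in N1-CKO cells (highest 245). The Kdr difference was -1.66 on the high 18S arrays (detected in 3 of 5 WT and 1 of 5 N1-CKO cells) and -2.83 on the low 18S arrays (6 of 8 and 2 of 8). Where the Gapdh ratio did not exceed 3, which left 11 WT and 8 N1-CKO cells, Kdr differed by -3.11 and was detected in 8 and 1 of them. N1-CKO cells 4 and 13, with bright Kdr, had Gapdh ratios of 5.16 and 3.43. Kdr followed the number of bright probe sets across cells, with r = 0.51 in WT and 0.48 in N1-CKO cells, and the part of array brightness in the Kdr difference was not tested.

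Flt1, the trap-like receptor, was not detected by any of its 4 probe sets in either group. Signals of the representative probe set ran from 7.28 to 271 in WT cells (median 30.0) and from 2.47 to 701 in N1-CKO cells (median 47.2). WT cell 11 and N1-CKO cell 10 were highest, and the groups overlapped. The mean log2 difference was -0.06, with SDs of 1.28 and 1.33, and the 4 probe sets ranged from -0.56 to 0.53, so that no direction can be given. In the 3 N1-CKO cells with bright Kdr, the same Flt1 probe set gave 2.47 (cell 3), 59.8 (cell 4) and 44.0 (cell 13).

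Nrp1, the coreceptor of VEGF and semaphorin 3A, was detected by its representative probe set in WT cell 4 alone, at 3620. That cell also had the brightest Kdr signal of all 26. The next WT value was 140 in cell 12, and the WT median was 11.2. Among N1-CKO cells the highest was 558 in cell 3 and the median 39.7. The WT mean of the log2 signal was 5.58 ± 2.03 and the N1-CKO mean 5.90 ± 1.50, so that they differed by 0.33. Without WT cell 4 the value was 0.85. It was 1.43 on the high 18S arrays and -0.36 on the low 18S arrays, so that no direction can be given.

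A second Nrp1 probe set gave 1314 in N1-CKO cell 12 and 1229 in N1-CKO cell 2, both below the thresholds of their arrays, and at most 90.6 in WT cells. Yet another probe set reached 611, again in N1-CKO cell 2. Differences over the 4 Nrp1 probe sets ranged from -0.07 to 1.21, and WT cell 4 was bright on the first alone.

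Nrp2, the coreceptor that favours semaphorin 3F, was not detected by its representative probe set, whose signals ran from 2.57 to 331 in WT and from 3.95 to 790 in N1-CKO cells. N1-CKO cell 10, the highest, stood just under its threshold, at percentile 89.8 of its array. Another Nrp2 probe set was detected in WT cell 7, at 3448, and in N1-CKO cell 2, at 2288. The next values of that probe set were 82.0 in WT and 232 in N1-CKO cells. WT cell 7 had a Kdr signal of 7.94 and N1-CKO cell 2 one of 469, so that neither Nrp2 cell was a Kdr cell. The mean log2 difference was 0.28 with the representative probe set, and it ranged from -0.74 to 0.28 over the 4.

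Because the VEGF receptors are familiar as endothelial genes, endothelial markers were read in the same cells. Of 22 such genes 21 were measured, and none was detected in any of the 12 cells with Kdr. Of all 18193 genes, 55.3% were likewise detected in none of these cells. Pecam1, Cdh5, Tek and Tie1, which encode adhesion molecules and receptors of the vessel wall, were detected in 0 of 26 cells, as were 41.9% of all genes. Their highest signal in a cell with Kdr was 313. Summed over the 21 markers, the signal ran from 237 to 4052 in WT and from 282 to 5698 in N1-CKO cells, and from 237 to 3595 in the 12 cells with Kdr. The mean log2 signal of the markers ran from 4.73 to 6.76 over the cells with Kdr and from 4.78 to 7.29 over the other 14, where the floor is 4.65. WT cell 10, with the weakest detected Kdr, was the highest of all WT cells, and WT cell 4, with the strongest, was at 4.74.

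The 3 marker detections were all in cells without Kdr. Cd34 was at 3821 in WT cell 7, Mmrn2 at 424 in WT cell 9 and Sox17 at 661 in N1-CKO cell 9, the last 2 barely above their thresholds of 414 and 644. With the lower limit of the 85th percentile, 19 pairs of marker and cell counted as detected, 4 of them in cells with Kdr. At the 95th percentile the count was 0.

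Few genes of other vessel-associated and glial cells were detected, where 41.9% of all genes were detected in 0 of 26 cells. Of 10 pericyte and smooth muscle genes, Pdgfrb, a receptor of pericytes, was detected in WT cell 1 (6481) and Abcc9 in N1-CKO cell 10 (804). Of 11 microglial genes, C1qa, a complement subunit, was detected in WT cell 10 at 10297, and of 4 astrocyte genes Gfap, the astrocyte filament, in WT cell 13 at 5374. WT cells 1 and 10 were cells with Kdr. In each of these cells 1 gene of its list was detected and the others were not.

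**Figure D3:**
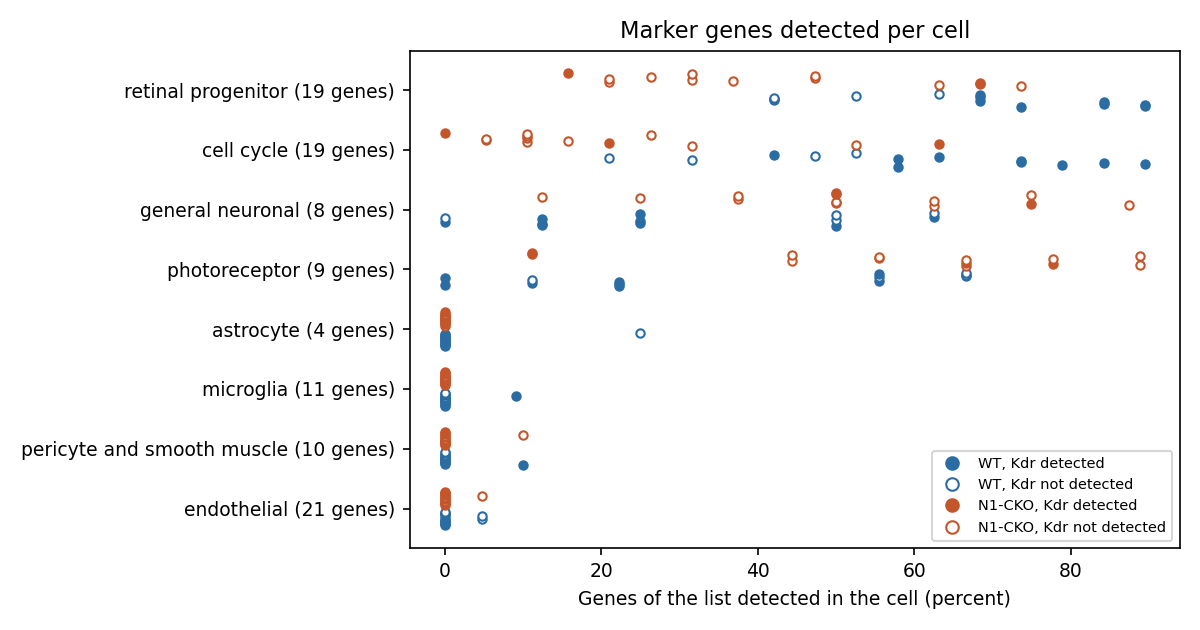
Percent of the measured genes of each marker list detected in a cell, for 13 WT (blue) and 13 N1-CKO (orange) cells, filled where Kdr was detected. The 12 filled points of the endothelial list all lie at 0, whereas the progenitor and cell cycle lists spread widely.

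Kdr-positive WT cells were read against genes of retinal progenitors and of the cell cycle. Of 20 progenitor genes 19 were measured. WT cells 2 and 3 had 17 of these detected, cells 4 and 5 had 16, cell 1 had 14, cells 6, 10 and 12 had 13 and cell 8 had 8. The WT cells without Kdr had 8 (cells 7 and 9), 10 (cell 11) and 12 (cell 13). WT cell 8 was thus the 1 cell with Kdr that overlapped those without it. Of the 19 cell cycle genes measured, 8 to 17 were detected in WT cells with Kdr and 4 to 10 in those without. Over all non-control probe sets, the detection limit lets the same share count in each cell, with a median of 4504 probe sets. The part of array brightness in the counts of progenitor and cell cycle genes was not tested.

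Detection of single genes is given for some with a high r with Kdr, chosen for it, and these counts restate that choice. Dkk3, a secreted protein of the Dickkopf family, was detected in 8 of the 9 WT cells with Kdr and in 0 of the 4 without. Zfp36l1, an mRNA-decay factor, was found in 9 of 9 and in 2 of 4, and Sox2, a factor that maintains neural progenitors, in 8 of 9 and 1 of 4. Hes5, a repressor induced by Notch, was detected in 7 of 9 and 1 of 4, and Hes1, a related repressor, in 5 of 9 and 1 of 4. Ccnd1, the D cyclin of progenitors, was detected in all 13 WT cells and did not separate them. Sox2, Hes1 and Hes5 were singled out after their values were seen.

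Across the 13 WT cells, log2 signals of progenitor genes were set against Kdr. Over the 17 genes of the list found in 6 or more cells, the median Pearson r was 0.42 and the median Spearman rho 0.38, against a median r of 0.12 over 4681 genes. An r of at least 0.4 was found for 10 of 17, against 20.3% of all genes, and an r above 0 for 14 of 17, against 62% of all genes. Dkk3 had an r of 0.84, Sox2 of 0.68, Hes1 of 0.66, Zfp36l1 of 0.65, Pax6 of 0.43 and Id1 of 0.42. Ccnd1 (-0.08), Id3 (-0.06) and Six3 (-0.29) had an r below 0. Rax, an eye field homeobox gene, had 0.42 in WT and -0.12 in N1-CKO cells. The cells share amplification and array brightness, and the correlations are descriptions without a test.

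WT cells 7, 11 and 13 tie at the floor and lie farthest from the median log2 Kdr signal. With a pair of them left out, the median r of progenitor genes was 0.34 (cells 7 and 11), 0.42 (7 and 13) or 0.52 (11 and 13). Without all 3 it was 0.24, against 0.17 over all genes, so that much of the distance from other genes rests on these cells. When the number of bright probe sets per array was removed from all genes, it was 0.31, with 0.03 over all genes. These settings were chosen after the data were seen. Cell cycle genes had a median r of 0.51 in WT cells, 0.41 after the adjustment and 0.40 without the 3 cells at the floor. The highest were Ccna2, cyclin A2, at 0.84 and the mitotic kinase gene Plk1 at 0.74, both named for these values. The cell cycle genes with the largest differences between the groups followed Kdr less, with an r of 0.20 for Nusap1, which bundles spindle microtubules, and 0.22 for Rrm1, a ribonucleotide reductase subunit.

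Genes of differentiating neurons had mostly negative values in WT cells. All 6 photoreceptor genes used had an r below 0 with Kdr, with a median of -0.40, whereas 62% of all genes had an r above 0. Neurod1, whose product drives photoreceptor and amacrine differentiation, had the lowest r of the list, -0.66. The median of the 6 photoreceptor genes was -0.08 without WT cells 11 and 13 and -0.63 without cells 7 and 11. Without all 3 cells at the floor this median was -0.58, so that its size depends on which of these cells stay in. Of 6 general neuronal genes 2 had an r above 0, and the median was -0.30. Syp, which encodes the vesicle protein synaptophysin, had an r of -0.83 in WT and -0.19 in N1-CKO cells. It was detected in 0 of the 9 WT cells with Kdr and 3 of the 4 without, so its WT r rests on few bright cells. In N1-CKO cells the medians of these lists were -0.20 for photoreceptor and 0.30 for neuronal genes. Without N1-CKO cells 3 and 13, which lie farthest from the median Kdr signal, they were 0.14 and 0.12. Of 6 Müller glia genes 5 had an r above 0 with Kdr in each group, with medians of 0.33 in WT and 0.28 in N1-CKO cells. The shares of all genes with an r above 0 were 62% and 62.7%, with medians of 0.12 and 0.10. The WT median of the Müller glia genes was 0.16 without cells 7 and 11, against 0.14 over all genes. It was 0.51 without cells 7 and 13, 0.55 without cells 11 and 13 and 0.41 without all 3.

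**Figure D4:**
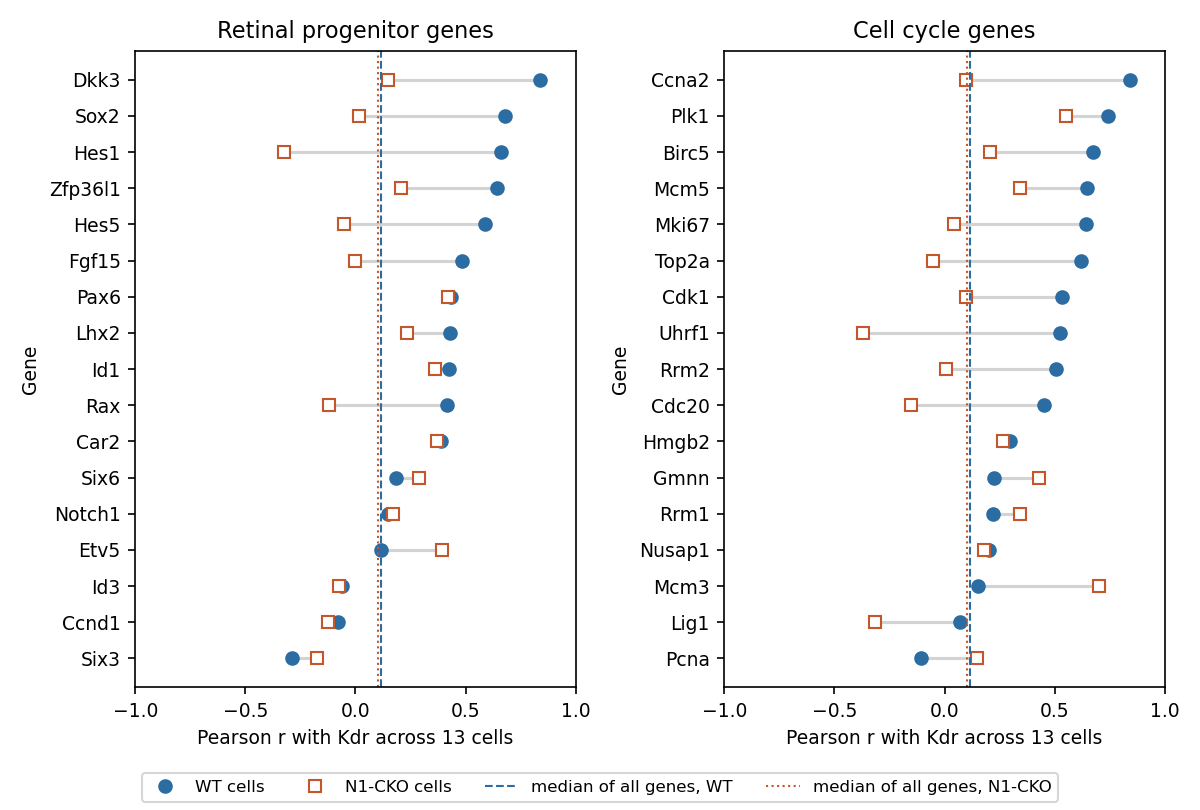
Pearson r with Kdr across 13 WT (blue circles) and 13 N1-CKO cells (orange squares) for progenitor genes (left) and cell cycle genes (right), with dashed and dotted lines at the medians over 4681 genes. The WT medians of both lists, 0.42 and 0.51, lie to the right of the all-gene line at 0.12, and the N1-CKO medians are both 0.15.

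In N1-CKO cells the median r of the same 17 progenitor genes was 0.15, against 0.10 over all genes. An r of at least 0.4 was found for 1 of 17, against 12.9% of all genes, and an r above 0 for 11 of 17, against 62.7%. The median ran from 0.00177 without N1-CKO cell 4 to 0.26 without N1-CKO cell 13, and it was -0.10 once the number of bright probe sets was removed. The cell cycle list had a median of 0.15. Some of these genes were hardly detected in N1-CKO cells, such as Etv5 (0 cells), Hes1 (1 cell) and Uhrf1 (0 cells), and their r describes background signals. Over the genes detected in at least 3 N1-CKO cells, 15 of 17 progenitor and 7 of 17 cell cycle genes, the medians were again 0.15 and 0.15. With 3 bright cells, r in this group rests on few values, and its difference from the WT value was not tested.

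Of the 3 N1-CKO cells with Kdr, cells 3 and 4 had similar counts of progenitor and photoreceptor genes. They parted on cell cycle genes, and cell 13 had fewer genes of each of these lists detected. Cell 3 had 13 of 19 progenitor genes and 12 of 19 cell cycle genes detected, with Mki67, the proliferation antigen, at 30632. It also had 7 of 9 photoreceptor genes detected, among them Otx2 at 14682 and Nrl at 37341. Cell 4 had 13 progenitor genes, 4 cell cycle genes and 6 photoreceptor genes detected, with Crx at 18247.

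Cell 13, with the brightest Kdr of the group, had 3 progenitor genes, 0 cell cycle genes and 1 photoreceptor gene detected. The 3 were Pax6 (16973), Six6 (8993) and Car2 (7455), of which Pax6 and Six6 are also kept in some inner retinal neurons. It had 4 of the 14 amacrine, horizontal and ganglion cell genes detected, namely Tfap2a (15463), Tfap2b (17931), Prox1 (6229) and Onecut2 (5138), which encode factors of amacrine and horizontal cells. The neuronal tubulin Tubb3 was at 57613 in that cell and the neurite protein gene Stmn2 at 23077. N1-CKO cell 11 shared Tfap2a (3769), Tfap2b (21569), Prox1 (4486) and Onecut2 (1178), yet its Kdr signal was 33.4. N1-CKO cell 12, with Tfap2a at 16439 and Tfap2b at 15945, had a Kdr signal of 21.5. The Gapdh ratio was 30.3 in cell 12 and 1.53 in cell 11, and its part in the low Kdr signal of cell 12 was not tested. A bright Kdr signal was therefore seen both beside many progenitor transcripts and beside none of the cell cycle list.

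**Figure D5:**
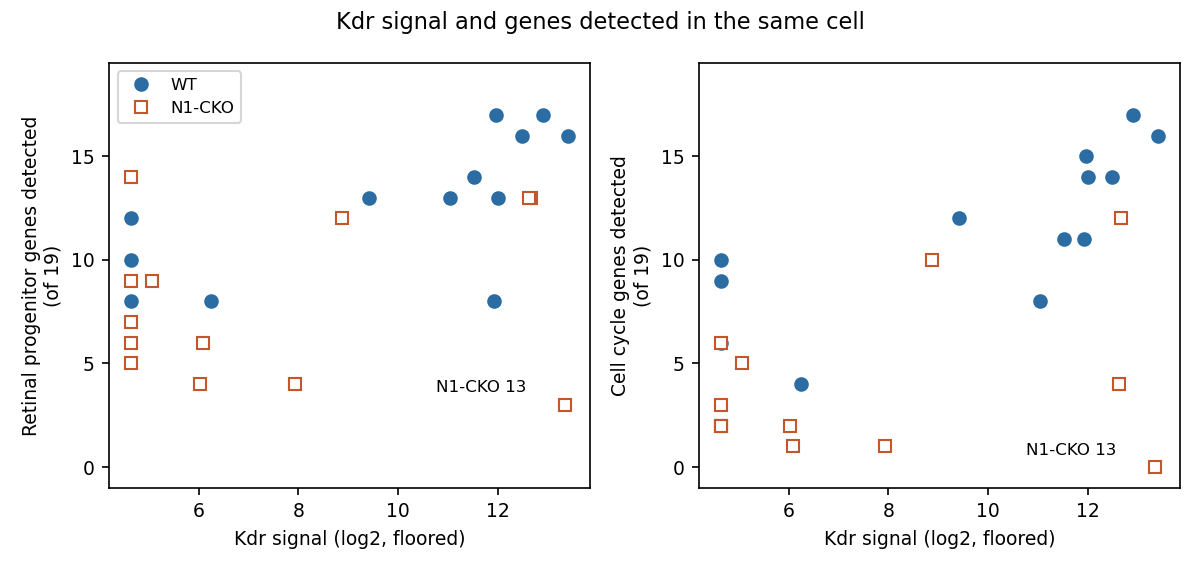
Number of progenitor genes (left) and cell cycle genes (right) detected in each cell, out of 19, against the floored log2 Kdr signal, for 13 WT (circles) and 13 N1-CKO cells (squares). N1-CKO cell 13, labelled, combines a Kdr signal of 10415 with 3 progenitor and 0 cell cycle genes.

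The genes whose pattern was most like that of Kdr were sought by the mean of the r over WT and the r over N1-CKO cells, 13 cells each, among 4439 genes. The 8 highest were Sema4d, Tspan14, Vars, Jpt2, Rab5if, Sh3glb2, Btf3l4 and Prss23. Sema4d, which encodes a membrane-bound semaphorin, had an r of 0.93 in WT and 0.63 in N1-CKO cells and was detected in 7 and 3 cells. Tspan14, a tetraspanin gene, had 0.65 and 0.88 (5 and 2 cells), and Vars, which encodes valyl-tRNA synthetase, 0.62 and 0.88 (3 and 3 cells). The means of the other 5 ran from 0.68 to 0.71. Values this high were picked as the top of many genes.

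The list of other VEGF ligands and receptors held 6 names, of which Figf is an older name of Vegfd. All 5 genes were measured, and each was detected in at most 2 cells. Vegfb, a ligand of FLT1, was detected in WT cells 1 (2665) and 3 (12081) and in 0 N1-CKO cells. Pgf, placental growth factor and likewise a ligand of FLT1, was detected in WT cell 8 (24129) and N1-CKO cell 2 (4655). Flt4, VEGF receptor 3, was detected in WT cell 9 at 448, close to its threshold of 414. Vegfc and Vegfd were detected in 0 cells. WT cells 1, 3 and 8 were cells with Kdr. These genes are named because so few cells had them, after their values were seen.

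Semaphorins and plexins are the other partners of neuropilins. Of 12 such genes measured, 5 were detected in at least 2 cells. Of these 0 had a difference of at most -1 and 2 (40%) had one of at least 1. All 8280 genes had shares of 22.3% and 19.1%. The median of the 5 genes was 0.84, against -0.04 over all 8280 genes. Plxna3, which encodes a plexin that pairs with neuropilin 2, was found in 5 N1-CKO cells and 0 WT cells. Its mean log2 signal was 5.29 ± 1.02 over WT and 8.55 ± 3.70 over N1-CKO cells. Sema3f, the semaphorin bound by neuropilin 2, was found in 1 WT cell and 6 N1-CKO cells, with a difference of 2.14 that is smaller than either SD. Plxnd1 (3 and 3 cells) differed by 0.84, and Plxna2 (5 and 5 cells) by 0.81, where 2 of its 4 probe sets had the opposite sign.

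Oxygen-sensing genes and hypoxia targets include genes that are regulated by oxygen, as Vegfa is. Of 16 measured, 11 were detected in at least 2 cells. Of these 3 (27.3%) had a difference of at most -1 and 3 (27.3%) one of at least 1. Over all 8280 genes the shares were 22.3% and 19.1%. The median of the list was -0.19, against -0.04 over all genes. The targets Car9 and Adm were detected in 0 of 26 cells, as were 41.9% of all genes. Slc2a1, the glucose transporter GLUT1, was found in 11 WT cells and 9 N1-CKO cells and differed by -2.08. Egln1, the main oxygen-sensing prolyl hydroxylase, was detected in 11 and 6 cells (-1.82), although its other probe set had the opposite sign. Pdk1, pyruvate dehydrogenase kinase, was detected in 6 and 3 cells (-1.39) and Ankrd37, a hypoxia-induced gene, in 2 and 6 (2.72). Hif1a, the oxygen-regulated subunit of the hypoxia factor, was found in 11 WT and 13 N1-CKO cells and is named here with its values known. All these differences are smaller than the larger SD between cells.

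Transducers that act below VEGF receptors were 17 of 22 measured, and 13 were detected in at least 2 cells. Of these 2 had a difference of at most -1 and 3 one of at least 1, with a median of 0.17. Pik3r1, the regulatory subunit of phosphoinositide 3-kinase, was found in 1 WT cell and 7 N1-CKO cells. Its mean log2 signal was 6.89 ± 2.94 over WT and 10.03 ± 2.51 over N1-CKO cells, and the difference of 3.14 is larger than either SD. Plcg1, phospholipase C gamma 1, which docks on activated KDR, was detected in 7 and 11 cells (2.22). Fyn, a Src family kinase, was detected in 2 and 7 cells (2.13), and Grb2, an adaptor, in 5 and 3 (-1.47). Over the 4 lists together, 6 of 31 genes had a difference of at most -1 and 8 one of at least 1. These shares of 19.4% and 25.8% stand beside the 22.3% and 19.1% of all genes.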

How the data were processed

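The deposited values are array intensity per probe set. The submitters' processing notes name MAS5, with a version not given in the sources used here. With 2% of probe sets trimmed at both ends, each array's mean was 500.0, so total RNA per cell cannot be read. Per the labels' protocols, cDNA was primed with oligo dT and amplified by PCR from 1 cell per array.

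Of 45101 probe sets, 34945 had 1 gene symbol in GEO's platform annotation, 932 several (not used) and 9160 none. Names were checked through Entrez numbers in a RefSeq table of GRCm38.p6, and 0 changed. Values were read with Python 3.11.15, pandas 2.3.3, numpy 2.4.6 and scipy 1.17.1. No statistical test was made, because the labels name no animals. Functions for differences and correlations were tested on simulated data. The lists hold 198 gene names, where Figf and Vegfd name the same gene. The array annotation held 182 of these names, and the other 16, Figf among them, are not analysed here. Members and lists were chosen with earlier results of these data known. Named genes are the members, detected endothelial markers, up to 4 members of each other list with the largest differences among those detected in at least 4 cells, the 4 highest and 4 lowest progenitor genes by mean r with Kdr, and the 8 genes most like Kdr among those detected in at least 6 cells, with at least 2 in each group. Other genes, such as Sox2, Hes1, Hes5, Ccna2, Plk1, Mki67, Crx and those of N1-CKO cell 13, were named after their values were seen. Alternatives covered the floor, scaling, probe set choice, detection limit, array sets and single cells left out. Spreads and counts rest on 13 arrays per group, and precision between animals cannot be given because the labels tie no cell to an animal.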

Additional observations from a re-analysis of the deposited data

How the results depend on the processing

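No paired analysis was possible because the cell numbers of the 2 groups name unrelated cells and no result comes from a test. Of 168 values under other settings, 147 stayed close to the value in the report, and 21 moved. Close meant within the spread between cells for differences and within 1.5 times for counts. For the median r it meant within the SD of r over the progenitor genes. The spread between cells is wide, and a Kdr difference of -5.49 and the sign changes named next counted as close. The count of 147 is therefore no measure of stability. Small differences changed sign: Flt1 became 0.65 with medians over cells, Nrp1 became -0.36 on low 18S arrays and Nrp2 became -0.08 when all probe sets were averaged. Vegfa stayed at or below 0. The Kdr difference stayed below 0 under each alternative, from -5.49 with medians over cells to -1.66 on high 18S arrays, and from -2.88 to -2.08 with 1 cell left out. Kdr was detected in 3 WT cells at the 95th percentile, in 3 WT and 1 N1-CKO cells on high 18S arrays and in 1 N1-CKO cell at a Gapdh ratio of at most 3. At the 85th percentile Flt1 was detected in 1 WT and 1 N1-CKO cell, Nrp1 in 2 and Nrp2 in 2 N1-CKO cells. Nrp1 was detected in 0 WT cells at the 95th percentile and in 0 on high 18S arrays, and Nrp2 in 1 WT and 1 N1-CKO cell when any probe set counted. Endothelial marker detections, 3 in the report, numbered 19 at the 85th percentile (4 in cells with Kdr), 0 at the 95th, 1 with a common threshold, 7 with any probe set and 1 on low 18S arrays. Pathway genes with a difference of at most -1, 6 in the report, numbered 3 when all probe sets of a gene were averaged and 10 by medians over cells. Without WT cell 7, 12 pathway genes reached a difference of at least 1, and without WT cell 3, 4 reached one of at most -1. The median r of Kdr with progenitor genes ranged in WT cells from 0.24 without the 3 cells at the floor to 0.62 on low 18S arrays, and in N1-CKO cells it became -0.10 with bright probe sets removed. High 18S arrays, 5 per group, were too few for r. The cause of these shifts was not tested.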

Other observations

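Haemoglobin probe sets gave an uneven picture. The probe set named for Hba-a2, an alpha globin gene, was detected in all 13 WT and all 13 N1-CKO cells, with mean log2 signals of 15.14 ± 0.93 and 15.13 ± 1.18 (SD over cells). The probe set of Hba-a1, the neighbouring alpha globin gene, was detected in 1 WT and 1 N1-CKO cell, and that of Alas2, the erythroid enzyme of haem synthesis, in 0 cells. Whether the Hba-a2 probe set measures alpha globin in these cells was not tested.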
